A study of Rattus norvegicus with 12 samples.

Results

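The receptors through which noradrenaline, acetylcholine and adenosine act on the heart were followed in RNA labelled as left atrial. The 8 genes were taken by symbol from the 21239 genes with counts: the beta adrenergic receptors Adrb1 (gene ID 24925) and Adrb3 (25645), the alpha adrenergic receptors Adra1a (29412) and Adra1b (24173), the muscarinic receptors Chrm2 (81645) and Chrm3 (24260), and the adenosine receptors Adora1 (29290) and Adora2a (25369). All 8 were in the table. A further 9 receptors of these 3 families are described more briefly beside them.

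RNA-seq was performed on tissue labelled as left atrium from 12 male rats, 3 in each of 4 groups. The rats were 14 weeks old when bought and were then fed for 4 weeks. Wistar-Kyoto rats, a normotensive strain, received saline at 7.5 mL/kg/day (WKY group), and spontaneously hypertensive rats received the same saline (SHR group), valsartan at 30 mg/kg/day (ARB group, an angiotensin receptor blocker) or sacubitril/valsartan at 60 mg/kg/day (ARNI group, an angiotensin receptor-neprilysin inhibitor). The SHR group against the WKY group asks how hypertension is reflected in atrial transcripts, and the treated groups against the SHR group ask what each drug changes. Strain and blood pressure cannot be told apart in the first comparison. The strain given in the titles of the 6 saline libraries contradicts the library name beside it, so they were grouped by library name, and the treated libraries carry the WKY strain but an SHR phenotype in their labels. The levels of Ndufa10l1, a gene whose reads could be shared with a near-identical copy, split the libraries as the names do. No read of it was counted in WKY, and the 9 other libraries had 54.0 to 119 CPM. The gene was picked from earlier results of these same data, so this split is no independent check of the names.

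The beta1 adrenergic receptor, encoded by Adrb1, couples to the stimulatory G protein, raises cyclic AMP and increases the rate and force of the beat. Adrenergic receptors of the alpha1 type couple to phospholipase C. The muscarinic M2 receptor, encoded by Chrm2, and the adenosine A1 receptor, encoded by Adora1, couple to inhibitory G proteins, lower cyclic AMP and open an inward rectifier potassium channel made of the products of Kcnj3 and Kcnj5, which shortens the atrial action potential. The adenosine A2a receptor, encoded by Adora2a, raises cyclic AMP and is best known in the heart for widening coronary vessels.

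The total count per library was 11252361 to 15823525, and a gene with no read could still have had a level of up to 0.190 to 0.267 CPM, the worth of 3 counts. CPM divides a gene's count by all counts of its library. These limits cover counting error only. Levels are given as CPM, which is not corrected for the length of a transcript, so levels are compared between libraries and never between genes. The labelled tissue was checked against marker genes first. Myl2, the ventricular myosin light chain, was over 1000 CPM in 6 libraries, all 3 of WKY together with SHR replicate 2, ARB replicate 3 and ARNI replicate 2 (2298 to 4161 CPM), and at 0.135 to 24.2 CPM in the other 6. Myl7, the atrial light chain, was at 0.889 to 15.9 CPM in the 3 WKY libraries and in ARNI replicate 2, and at 4478 to 11547 CPM in the other 8. The summed level of 7 atrial markers was 71.4 to 300.03 CPM in WKY, where 1 marker was at 0 in replicate 1, 2 in replicate 2 and 0 in replicate 3. It was 27735 to 77206 CPM in SHR, 36908 to 74449.9 CPM in ARB and 90.2 to 66891 CPM in ARNI. The summed level of 5 ventricular markers was 43273 to 43595 CPM in WKY, 371 to 9833 CPM in SHR, 434 to 10624 CPM in ARB and 651 to 18563 CPM in ARNI. The libraries of WKY and ARNI replicate 2 thus go against the labelled atrium by their markers, and SHR replicate 2 and ARB replicate 3 hold the markers of both chambers. In tissue RNA, fewer cells of a type and less RNA per cell cannot be told apart.

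Promoter sequences were found for 5 of the 8 receptors, and 4 are printed because these receptors separated the groups or the libraries most clearly in the values that follow. Each is the stretch of 250 bases that precedes the gene start given by RefSeq (build GRCr8, a later assembly than the one in the authors' processing notes), written 5′ to 3′ on the strand of the gene. Capitals mark the searched motifs that were found. For Chrm2, Adra1b and Adora1 the start used lies inside a longer annotated gene, and for Adrb1 it is the start of the gene.
Adrb1, chr1:265776853-265777102, plus strand: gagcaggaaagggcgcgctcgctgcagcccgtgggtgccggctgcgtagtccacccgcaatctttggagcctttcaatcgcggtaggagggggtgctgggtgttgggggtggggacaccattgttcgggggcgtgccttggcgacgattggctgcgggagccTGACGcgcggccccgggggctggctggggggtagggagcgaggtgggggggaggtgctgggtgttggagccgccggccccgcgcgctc
Chrm2, chr4:65982200-65982449, plus strand: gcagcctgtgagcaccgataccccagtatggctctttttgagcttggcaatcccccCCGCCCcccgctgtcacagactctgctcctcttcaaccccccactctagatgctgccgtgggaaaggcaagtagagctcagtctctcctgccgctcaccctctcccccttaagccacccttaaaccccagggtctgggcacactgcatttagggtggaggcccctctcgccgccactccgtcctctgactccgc
Adora1, chr13:48246832-48247081, minus strand: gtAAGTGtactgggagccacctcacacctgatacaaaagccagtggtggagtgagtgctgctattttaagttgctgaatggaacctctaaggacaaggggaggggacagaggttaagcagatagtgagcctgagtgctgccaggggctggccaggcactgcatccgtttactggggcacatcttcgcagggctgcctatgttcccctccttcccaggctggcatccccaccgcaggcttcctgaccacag
Adra1b, chr10:28814348-28814597, minus strand: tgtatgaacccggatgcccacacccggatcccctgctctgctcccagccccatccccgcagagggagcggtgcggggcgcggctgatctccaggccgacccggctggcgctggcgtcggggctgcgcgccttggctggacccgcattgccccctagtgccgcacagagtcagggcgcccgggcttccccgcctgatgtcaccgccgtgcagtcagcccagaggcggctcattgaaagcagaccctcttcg

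The motifs were searched on both strands. Adrb1 held TGACG, which forms part of the cyclic AMP response element, at position -88 from the start, as did 18.2% of all 33469 RefSeq promoters of the same length. Chrm2 held the Sp1 motif GGGCGG on the reverse strand at -194 (30.5% of promoters), and Adora1 held the Nkx2-5 motif AAGTG at -248 (40.6%). Adra1b held none of the searched motifs. The full cyclic AMP response element TGACGTCA (1.59% of promoters), which contains TGACG, the TATA box TATAAA (12.9%), the GATA motif AGATAA (10.3%), the MCAT motif CATTCC (12.1%) and the E-box CACGTG (5.59%) were in none of the 4. The GC content was 72.0% for Adrb1, 70.8% for Adra1b, 62.0% for Chrm2 and 56.8% for Adora1, against a median of 51.2% over all promoters. These matches describe the printed letters and were not related to the expression values.

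Between the SHR and WKY groups, 6 of the 8 receptors had enough counts to be tested. Chrm2 rose and Adora2a fell past the thresholds of the study, which ask for a change of 2-fold or more together with an adjusted p of 0.05 or less (here edgeR's quasi-likelihood test). That is 2 of 6, beside 8.89% of all 13794 genes tested. Adrb1 and Adora1 also passed the adjusted p, with folds below 2, which makes 3 of 6 higher and 1 of 6 lower. Beside them stand 20.6% of all genes, 12.3% higher and 8.26% lower. In these 4 receptors the values of the groups did not overlap, as in 49.5% of all genes (33.7% higher and 15.9% lower). The median log2 fold change of the 6 receptors was 0.24 and that of all genes 0.01. The libraries of the 2 groups differed in chamber markers as given above, and strain, blood pressure and these markers cannot be told apart in this comparison.

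**Figure D1:**
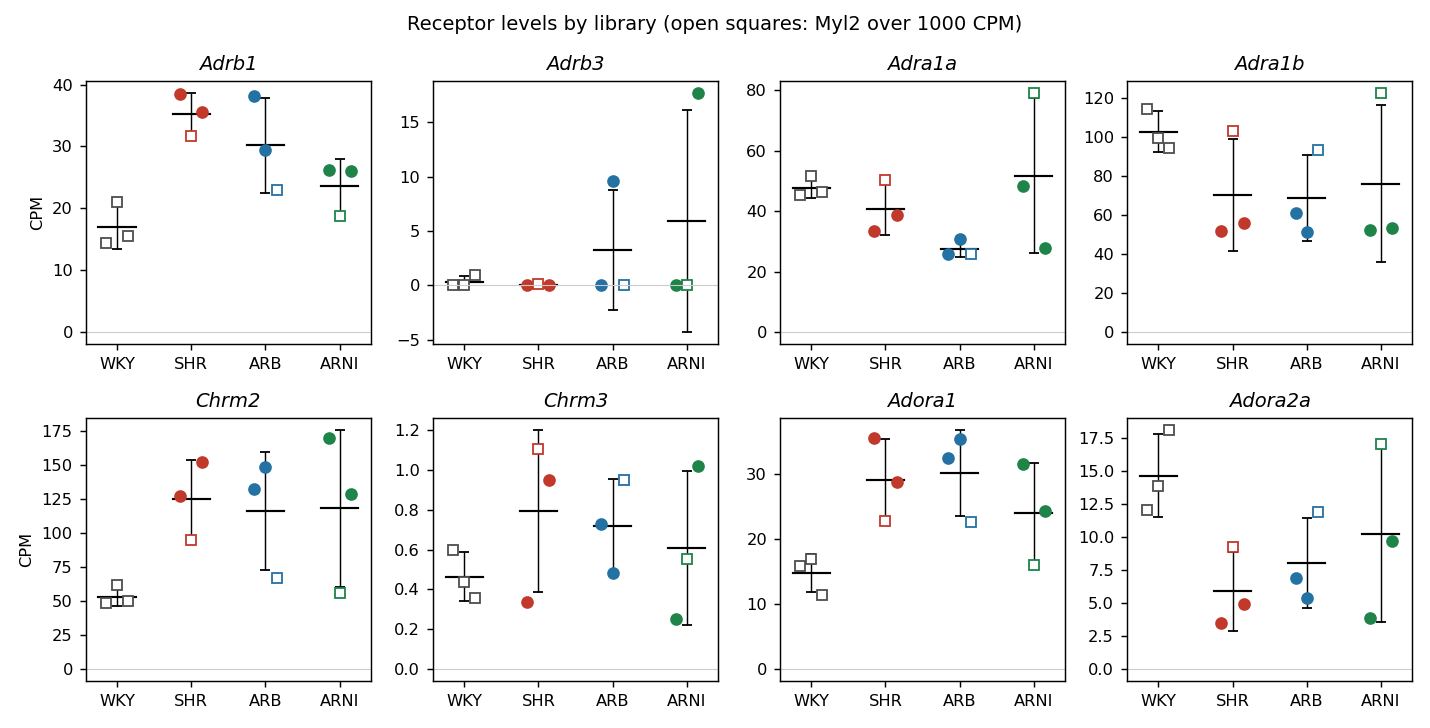
Level of each receptor (CPM, linear axis) in the 3 libraries of the WKY, SHR, ARB and ARNI groups, with the mean (horizontal bar) and SD (error bar); open squares are libraries with Myl2 over 1000 CPM. Chrm2 lies at 48.4 to 61.4 CPM in WKY and at 94.9 to 152 CPM in SHR, and Adrb3 is far above 0 in ARB replicate 2 and ARNI replicate 3.

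Chrm2, the M2 receptor that slows the heart under vagal tone, was measured at 48.4, 61.4 and 49.6 CPM in WKY. The SHR libraries held 127, 94.9 and 152 CPM, the ARB libraries 132, 149 and 67.0 CPM and the ARNI libraries 169.9, 56.0 and 128 CPM. Every SHR library lay above every WKY library, and the lowest library of each hypertensive group was the one that held Myl2. The mean rose from 53.1 ± 7.18 CPM in WKY to 125 ± 28.7 CPM in SHR (SD, n = 3), a log2 fold change of 1.08 (95% interval 0.70 to 1.47, standard error (SE) 0.16 and adjusted p = 0.0101, edgeR). The adjusted p ranged from 8.29e-07 to 0.746 over 13 alternatives. The call was lost without WKY replicate 1 (adjusted p = 0.0564, edgeR), without WKY replicate 3 (adjusted p = 0.0586, edgeR), and without SHR replicate 3, where the log2 fold change was 0.97.

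Adora1, the A1 receptor, was at 15.9, 17.0 and 11.4 CPM in WKY and at 35.5, 22.8 and 28.7 CPM in SHR. The ARB libraries held 32.4, 35.3 and 22.6 CPM and the ARNI libraries 31.5, 16.04 and 24.3 CPM. As for Chrm2, all SHR values lay above all WKY values, and the lowest value of each hypertensive group was in the library with Myl2. Between SHR and WKY the log2 fold change was 0.84 (95% interval 0.36 to 1.32, SE 0.20 and adjusted p = 0.0334, edgeR), a fold of 1.79, with an adjusted p of 0.00643 to 0.741 over 13 alternatives.

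Adrb1, the main beta receptor of heart muscle, was at 14.5, 21.0 and 15.6 CPM in WKY and at 38.5, 31.8 and 35.6 CPM in SHR. The groups did not overlap, and the library of SHR with Myl2 was again the lowest of its group. The mean was 17.0 ± 3.52 CPM in WKY and 35.3 ± 3.35 CPM in SHR (SD, n = 3). The log2 fold change was 0.92 (95% interval 0.54 to 1.29, SE 0.16 and adjusted p = 0.0143, edgeR; 0.000167 to 0.25 over 13 alternatives), a fold of 1.89. With library totals alone as scaling it was 1.05 and passed both thresholds, as it also did without WKY replicate 2.

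Adora2a, the A2a receptor, was at 12.0, 13.8 and 18.1 CPM in WKY and at 3.48, 9.22 and 4.95 CPM in SHR. The groups did not overlap, and the SHR library with Myl2 was here the highest of its group. The mean was 14.7 ± 3.14 CPM in WKY and 5.88 ± 2.99 CPM in SHR (SD, n = 3), a log2 fold change of -1.45 (95% interval -2.38 to -0.51, SE 0.39 and adjusted p = 0.0446, edgeR). The call rested on each of 5 libraries: leaving out any library other than SHR replicate 2 gave an adjusted p between 0.0911 and 0.145 (edgeR), and over all 13 alternatives it was 0.00157 to 0.742.

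The alpha1 receptors did not pass the thresholds. Adra1b was at 114, 99.6 and 94.4 CPM in WKY and at 51.8, 103 and 55.8 CPM in SHR, so that 2 SHR libraries lay far below WKY and SHR replicate 2 within its range. The log2 fold change was -0.66 (95% interval -1.38 to 0.048, SE 0.30 and adjusted p = 0.148, edgeR). Without SHR replicate 2 it was -1.10 with an adjusted p of 0.000633 by edgeR, the lower end of a range that reached 0.343 over 13 alternatives. Adra1a was at 45.4, 51.7 and 46.6 CPM in WKY and at 33.5, 50.3 and 38.8 CPM in SHR, with overlapping groups and a log2 fold change of -0.36 (95% interval -0.79 to 0.073, SE 0.18 and adjusted p = 0.187, edgeR). Without SHR replicate 2 the log2 fold change of Adra1a was -0.58 with an adjusted p of 0.00449 by edgeR, against up to 0.487 over 13 alternatives.

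When the 12 libraries were fitted together, the log2 fold changes of the 6 receptors were nearly the same, but the adjusted p was 0.0727 for Chrm2 and 0.126 for Adora2a (edgeR), and no receptor was called. A score of atrial minus ventricular markers, added as a covariate to that fit, changed the direction of 4 receptors: Chrm2 was then at -0.13, Adora2a at 0.28, Adra1a at 0.51 and Adra1b at 0.73 on the log2 scale, and Adrb1 and Adora1 were at 0.55 and 0.16. None of these 6 passed the adjusted p, the lowest being 0.0864 for Adra1b (edgeR). The score was -2.44 to -2.40 in the WKY libraries and -0.29 to 1.84 in the SHR libraries, so the groups do not overlap in it and the values with the covariate are extrapolated from slopes within the groups.

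**Figure D2:**
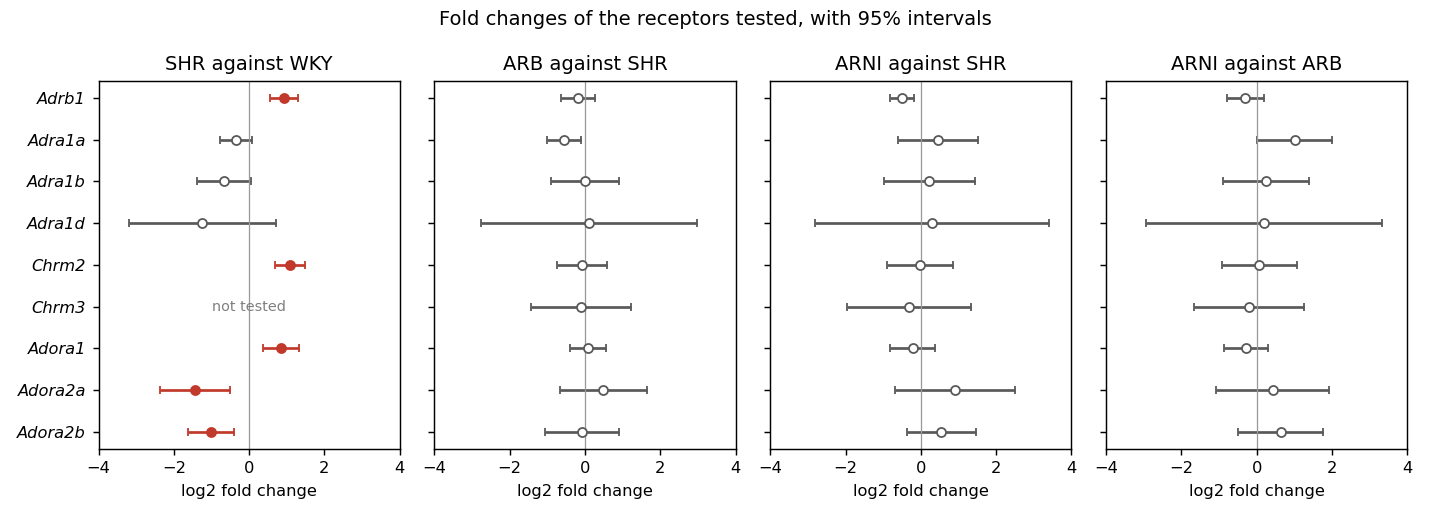
Log2 fold changes from edgeR with 95% intervals (bars) for the tested receptors in the 4 comparisons; filled red points have an adjusted p of at most 0.05, whatever their fold. Adrb1, Chrm2, Adora1, Adora2a and Adora2b are filled for SHR against WKY, and no point is filled in the 3 comparisons with a treated group.

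With valsartan, none of the 7 receptors tested was called against SHR by edgeR, nor was any of the 13979 genes. At an unadjusted p under 0.05 edgeR gave 225 genes (1.61%), and DESeq2 called 3 genes, none of them a receptor. Adra1a, an alpha1 receptor of heart muscle cells, was at 26.0, 30.7 and 25.9 CPM in the ARB libraries, all below the SHR range of 33.5 to 50.3 CPM. It was the only receptor whose groups did not overlap, as in 5.39% of all genes (2.99% lower in ARB). The log2 fold change was -0.55 (95% interval -1.0 to -0.097, SE 0.19 and adjusted p = 0.9999, edgeR; 0.763 to 1 over 14 alternatives), and -0.32 without SHR replicate 2 and ARB replicate 3, the libraries with Myl2. The other 6 had log2 fold changes between -0.20 for Adrb1 (95% interval -0.65 to 0.26) and 0.49 for Adora2a (95% interval -0.67 to 1.65), so that a change of 2-fold lies outside the interval for Adrb1, Chrm2 (-0.75 to 0.59), Adora1 (-0.40 to 0.55) and Adra1b (-0.91 to 0.90), and inside it for Adora2a and Chrm3 (-1.43 to 1.23).

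With sacubitril/valsartan, none of the 7 receptors tested and none of 13955 genes was called against SHR by edgeR. At an unadjusted p under 0.05 edgeR gave 227 genes (1.63%), and DESeq2 called 7 genes, none of them a receptor. Adrb1 was at 26.2, 18.7 and 26.0 CPM in the ARNI libraries, all below the SHR range of 31.8 to 38.5 CPM and, except for replicate 2, above the WKY range of 14.5 to 21.0 CPM. It was the only receptor without overlap, as in 6.56% of all genes (5.19% lower in ARNI). The log2 fold change was -0.51 (95% interval -0.83 to -0.19, SE 0.13 and adjusted p = 0.9993, edgeR), and -0.46 without the libraries of both groups that held Myl2. The adjusted p was 0.651 to 1 over 14 alternatives, and all 14 kept the direction. In the ARB libraries Adrb1 was at 38.2, 29.5 and 22.9 CPM, which overlaps both SHR and ARNI. Over the 4 groups its mean was lowest in WKY, then 23.6 ± 4.27 CPM in ARNI, 30.2 ± 7.68 CPM in ARB and highest in SHR (SD, n = 3), and each neighbouring pair in this order overlapped.

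The remaining 6 receptors had log2 fold changes of -0.32 to 0.90 between ARNI and SHR, and the widest interval, that of Adora2a, was -0.69 to 2.50. ARNI replicate 2 stood apart from the other ARNI libraries. It held the highest level of Adra1a (79.2 CPM, against 48.4 and 28.0 CPM in the other ARNI libraries), of Adra1b (123 against 52.6 and 53.5 CPM) and of Adora2a (17.1 against 3.86 and 9.70 CPM), and the lowest of Chrm2 and Adora1. Its levels of Adrb1, Chrm2, Adora1 and Adora2a lay within the range of the 3 WKY libraries, as for 30.7% of the 13542 genes with a mean of at least 1 CPM, and those of Adra1a and Adra1b lay above it. Chrm3 and Adrb3, with 7 reads and 0 reads in this library, were too low to be placed. Without it, Adra1b was 0.41 lower than SHR on the log2 scale, and Adra1a 0.086 lower, against 0.23 and 0.46 higher with it. The log2 fold change of Adora2a, 0.90 with all libraries, was 0.19 without ARNI replicate 2 and 1.44 without SHR replicate 2. That of Adora1, -0.21 with all libraries, ranged from -0.43 without ARNI replicate 1 to -0.037 without ARNI replicate 2, and was -0.041 without SHR replicate 1 and -0.33 without SHR replicate 2.

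The libraries of ARNI and SHR that share a replicate number were taken as pairs, although the labels do not name them as pairs. In both groups the library with high Myl2 is replicate 2. Adora1 was lower in ARNI in 3 of 3 pairs, with 31.5 against 35.5, 16.04 against 22.8 and 24.3 against 28.7 CPM. Adora2a was higher in ARNI in 3 of 3 pairs, with 3.86 against 3.48, 17.1 against 9.22 and 9.70 against 4.95 CPM. Adrb1 was lower in 3 of 3 pairs, as its groups do not overlap, and the other receptors had no common direction. Of the 13542 genes with a mean of at least 1 CPM, 22.3% were lower and 7.91% higher in all pairs. With the replicate block, the log2 fold change was -0.23 for Adora1 (SE 0.12), 0.77 for Adora2a (SE 0.24) and -0.51 for Adrb1 (SE 0.11), each with an adjusted p of 0.844 by edgeR.

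Between the treated groups, none of 7 receptors and none of 13948 genes was called by edgeR, with 539 genes (3.86%) at an unadjusted p under 0.05 and 18 genes called by DESeq2, none of them a receptor. Adra1a was higher in ARNI than in ARB by a log2 fold change of 1.02 (95% interval 0.019 to 2.01, SE 0.41 and adjusted p = 0.993, edgeR; 0.267 to 1 over 14 alternatives), and by 0.46 without ARB replicate 3 and ARNI replicate 2. All 7 receptors overlapped between the treated groups, whereas 10.5% of all genes did not. The other 6 lay between -0.30 for Adrb1 and 0.42 for Adora2a. The 2 comparisons with SHR share the SHR libraries, and all 3 comparisons of hypertensive groups share libraries with each other.

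Some of the receptors differed with the chamber markers across groups. Between the 6 libraries with Myl2 over 1000 CPM and the 6 others, Chrm2 did not overlap (48.4 to 94.9 CPM with Myl2, 127 to 169.9 CPM without), nor did Adora1 (11.4 to 22.8 CPM, and 24.3 to 35.5 CPM) or Adra1b (93.4 to 123 CPM, and 51.2 to 61.2 CPM). These are 3 of 8 receptors, with 1 higher and 2 lower in the libraries with Myl2, beside 21.1% of the 14452 genes kept over the 12 libraries (7.38% higher and 13.7% lower). Adrb1 overlapped, with a median of 19.9 CPM with Myl2 and 32.6 CPM without, as did Adora2a (12.9 and 5.16 CPM) and Adra1a (48.4 and 32.1 CPM). Since all WKY libraries are among those with Myl2, this split and the group are partly the same, and the part of the chamber markers in the group differences was not tested beyond the fits given here. Within the hypertensive rats, the 3 libraries with Myl2 held 94.9, 67.0 and 56.0 CPM of Chrm2 and the 6 without held 127 to 169.9 CPM. Adora1 and Adra1b did not overlap in this split either, whereas Adra1a and Adora2a did. Adrb1 overlapped too, with 31.8, 22.9 and 18.7 CPM with Myl2 and 26.0 to 38.5 CPM without. What causes these differences was not tested.

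**Figure D3:**
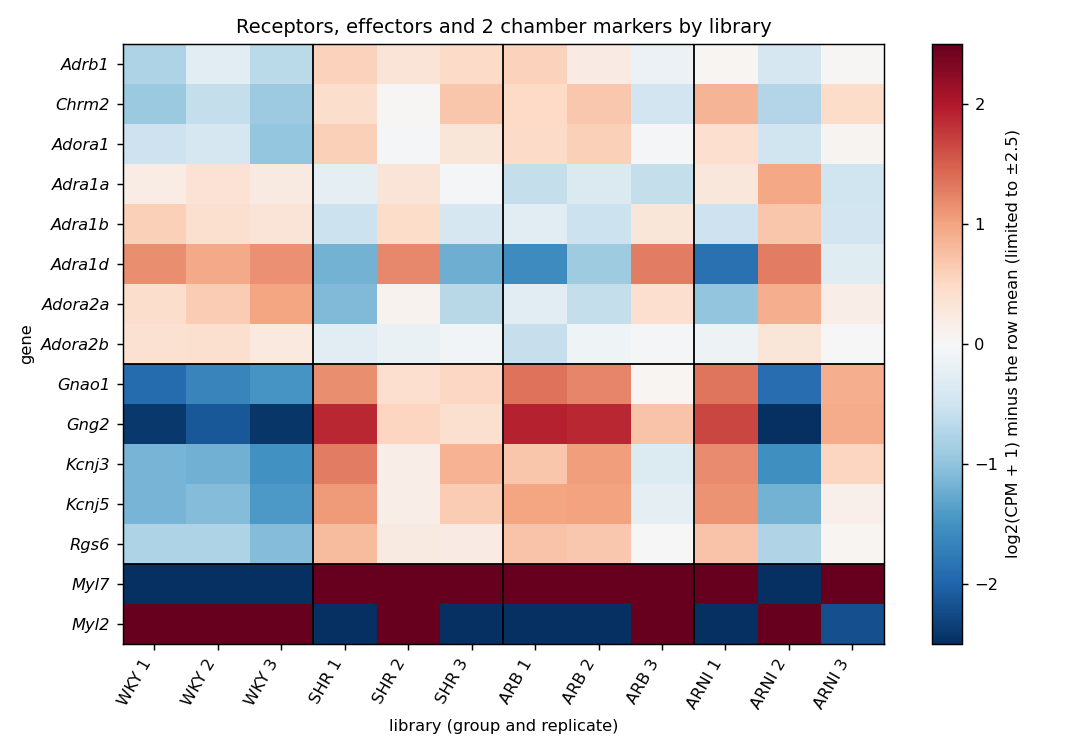
Receptors, 5 signalling genes and the chamber markers Myl7 and Myl2 (rows) in the 12 libraries (columns), coloured by log2(CPM + 1) minus the mean of the row, limited to ±2.5. Chrm2, Adora1, Gnao1, Gng2, Kcnj3, Kcnj5 and Rgs6 are lower in WKY and in ARNI replicate 2 than in the other libraries, with ARB replicate 3 and SHR replicate 2 mostly between them, and Adra1b and Adra1d are higher in the 6 libraries with Myl2.

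The 2 receptors that were not tested between SHR and WKY had few reads. Chrm3, the M3 receptor, known for smooth muscle and glands, had 4 to 15 reads in every library, that is 0.253 to 1.10 CPM, with means of 0.462 ± 0.123 CPM in WKY and 0.796 ± 0.407 CPM in SHR (SD, n = 3). All 4 groups overlapped for Chrm3, and differences between them were not detectable at this depth. Adrb3, the beta receptor that drives fat breakdown in adipocytes, had no read in 7 of the 12 libraries, 1 read in SHR replicate 2 and ARB replicate 1, and 11 reads (0.978 CPM) in WKY replicate 3. It had 140.0 reads (9.63 CPM) in ARB replicate 2 and 261 reads (17.7 CPM) in ARNI replicate 3, and no read in the other 2 ARNI libraries.

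Genes of fat cells were high in the same libraries as Adrb3. Ucp1, the uncoupling protein of brown fat, was at 15.6 CPM in ARB replicate 2, 182 CPM in ARNI replicate 3 and 1.19 CPM in WKY replicate 3, and at most 0.198 CPM elsewhere. Adipoq, which encodes adiponectin, was at 192 CPM in ARB replicate 2, 61.7 CPM in ARNI replicate 3 and 4.71 CPM in WKY replicate 3, and at most 0.713 CPM elsewhere. The summed level of 7 adipocyte markers was 529 and 563 CPM in these 2 treated libraries and 65.6 to 128 CPM in the other 10, where Cidea, at 56.8 CPM or more in every library, made up most of it. No marker of the list was at 0 in WKY replicate 3, ARB replicate 2 or ARNI replicate 3, and 1 to 4 were at 0 in the others. Markers of other cell types were also highest in ARB replicate 2 and ARNI replicate 3. Their sums there were 120 and 167 CPM for Schwann cells (at most 93.3 CPM elsewhere) and 155 and 202 CPM for pacemaker cells (at most 122 CPM elsewhere). For nerve cells they were 33.0 and 250.4 CPM (at most 23.5 CPM elsewhere). The sums for endothelial cells, fibroblasts, leukocytes and erythroid cells were highest in other libraries. The part of fat cells, or of any other cell type, in the Adrb3 values was not tested.

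Of the 9 further receptors of the families, 2 were tested between SHR and WKY. Adora2b, the A2b receptor, fell from 1.96, 2.00 and 1.69 CPM in WKY to 0.869, 1.02 and 1.15 CPM in SHR, a log2 fold change of -1.02 (SE 0.26 and adjusted p = 0.0373, edgeR; 0.0849 by DESeq2). Adra1d, an alpha1 receptor known from vascular smooth muscle, was at 10.4 to 13.5 CPM in the 6 libraries with Myl2 and at 0.632 to 3.80 CPM in the 6 others. Its log2 fold change between SHR and WKY was -1.24 (95% interval -3.19 to 0.70, adjusted p = 0.294, edgeR), with 1.60, 12.7 and 1.56 CPM in the SHR libraries.

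The remaining 7 had too few reads to be tested between SHR and WKY. Adra2a, Adra2b and Adra2c, which encode the alpha2 receptors, did not exceed 2.22 CPM in any library. Chrm5 did not exceed 0.135 CPM, and Adora3 had 3 reads in WKY replicate 3 and none elsewhere. Chrm1 and Chrm4, muscarinic receptors best known from nerve cells, had 19 and 34 reads (1.29 and 2.31 CPM) in ARNI replicate 3 and at most 0.170 and 0.162 CPM in any other library. Markers of nerve cells were highest in the same library: Slc18a3, the vesicular acetylcholine transporter, was at 20.9 CPM there and at most 0.344 CPM elsewhere, and Snap25 was at 26.1 CPM and at most 1.75 CPM elsewhere. The summed level of 10 nerve cell markers was 250.4 CPM in ARNI replicate 3 and 8.14 to 33.0 CPM in the 11 others. The 2 genes of catecholamine synthesis on this list differed: Th was at 0.0678 CPM in ARNI replicate 3. Dbh was highest in that library, at 16.5 CPM, and at most 2.37 CPM in the 6 libraries with Myl2 over 1000 CPM. The 6 others, which include ARNI replicate 3, had a median of 2.46 CPM of Dbh. The summed markers of fat, Schwann and pacemaker cells were also highest in ARNI replicate 3. So were those of smooth muscle cells or pericytes, at 775 CPM against at most 403 CPM elsewhere. The part of nerve cells, or of any other cell type, in these values was not tested.

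**Figure D4:**
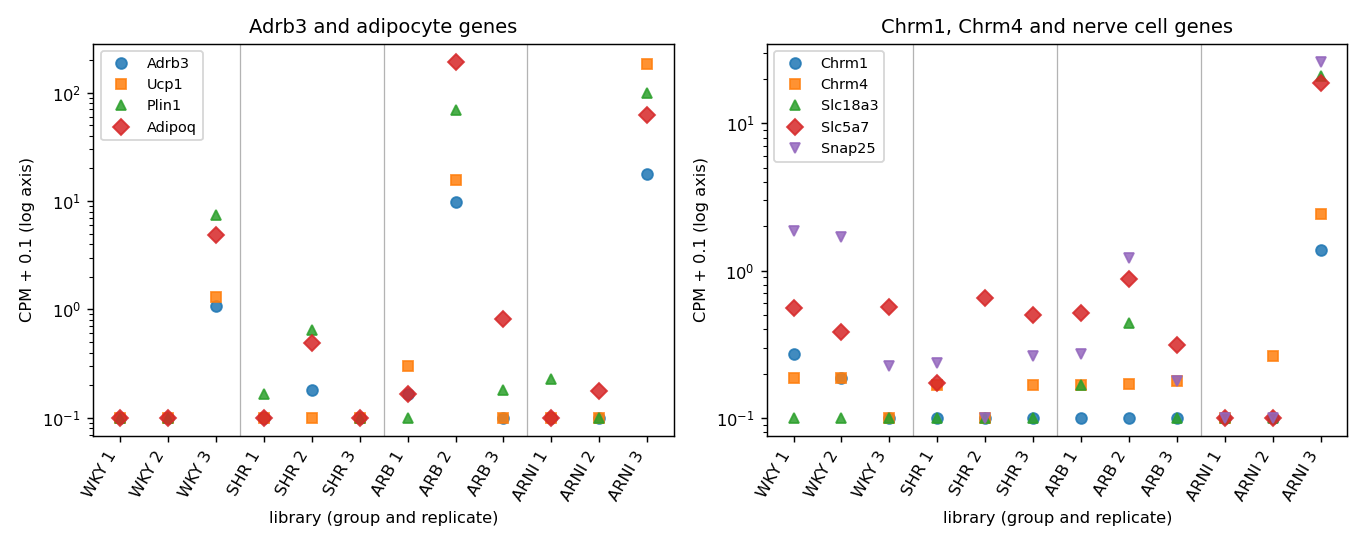
Left, Adrb3 and 3 adipocyte genes; right, Chrm1, Chrm4 and 3 nerve cell genes, in each of the 12 libraries (CPM + 0.1, log axis). Adrb3 is high where Ucp1, Plin1 and Adipoq are high, in ARB replicate 2 and ARNI replicate 3, and Chrm1 and Chrm4 are high in ARNI replicate 3 together with Slc18a3, Slc5a7 and Snap25.

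Downstream of the receptors, 9 lists of signalling genes were described in the same fit of SHR against WKY, where 5.54% of all genes were called higher and 3.35% lower. Among 23 G protein subunits tested, 2 were called higher and none lower, with a median log2 fold change of 0.03. Gnao1, the alpha subunit of Go, was at 32.8, 40.0 and 45.3 CPM in WKY and at 288, 172 and 184 CPM in SHR (2.31 on the log2 scale, SE 0.24 and adjusted p = 0.00433, edgeR). Gng2, a gamma subunit, rose by 3.46 on the log2 scale (SE 0.46 and adjusted p = 0.00738, edgeR). In ARNI replicate 2, which lacks Myl7 as WKY does, Gnao1 was at 33.6 CPM and Gng2 at 4.17 CPM, near their WKY levels of up to 45.3 and 8.17 CPM.

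None of 8 adenylyl cyclases was called (median -0.56), although Adcy5 (0.42) and Adcy6 (-0.66), the main cyclases of heart muscle, passed the adjusted p in opposite directions (0.0286 and 0.0241, edgeR). Of 13 genes for protein kinase A, its anchors and its inhibitors, Pkig, an inhibitor of the kinase, was the only one called (1.24 on the log2 scale, SE 0.15 and adjusted p = 0.00594, edgeR), and the median was -0.20. Of 18 receptor kinases, arrestins and regulators of G protein signalling (RGS) tested, 3 were called higher and none lower, with a median of 0.25. These were Grk3, a kinase that phosphorylates active receptors (1.51, adjusted p = 0.0219), Rgs2 (1.32, adjusted p = 0.0295) and Rgs6 (1.19, adjusted p = 0.0130, all edgeR), of which Rgs6 is known for ending M2 receptor signalling in the atrium. Grk3 did not overlap between the libraries with Myl2 over 1000 CPM (2.48 to 9.05 CPM) and the others (12.5 to 18.9 CPM), as in 21.1% of all genes. Rgs2 and Rgs6 overlapped in this split. Both had a lower median with Myl2 than without, at 9.37 and 18.1 CPM for Rgs2 and 58.0 and 160 CPM for Rgs6.

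Of 15 genes for phospholipase C, protein kinase C and the inositol trisphosphate receptors, which act downstream of alpha1 and M3 receptors, Itpr1 was called higher (1.41, adjusted p = 0.0220) and Prkcb lower (-1.16, adjusted p = 0.0289, edgeR), with a median of -0.25. Itpr1 was at 35.6 to 61.9 CPM in the libraries with Myl2 over 1000 CPM and at 111 to 193 CPM in the others, while Prkcb overlapped in this split. The 17 ion channel and calcium cycling genes tested held 5 called higher and 1 called lower, with a median of -0.05. Kcnj3, a subunit of the potassium channel that M2 and A1 receptors open, was at 52.9, 51.6 and 41.3 CPM in WKY and at 291, 134 and 220.2 CPM in SHR (2.00 on the log2 scale, SE 0.27 and adjusted p = 0.00740, edgeR). Sln, the calcium pump inhibitor sarcolipin, which is also on the list of atrial markers, rose by 11.43 and Cacna1d, an L-type calcium channel, by 4.24, while Kcne1, a subunit of a delayed rectifier, fell by 4.25 on the log2 scale (adjusted p of 0.00114, 0.00405 and 0.00609, edgeR). The other 2 called higher, named after their values were seen, were Kcnj5 (1.76) and Ppp1r1a (1.39). Sln had few reads in WKY (0.261 to 0.444 CPM, where 3 counts are worth 0.256 to 0.267 CPM), so the size of its fold is uncertain. Kcne1 was at 0.317 to 6.75 CPM in the libraries with Myl2 over 1000 CPM and at 0 to 0.201 CPM in the others. Sln, Cacna1d and Kcnj3 did not overlap in this split either, as in 21.1% of all genes, whereas Kcnj5 and Ppp1r1a overlapped. ARNI replicate 2 held 40.6 CPM of Kcnj3, 69.5 CPM of Kcnj5 and 2.36 CPM of Cacna1d, within or just below the WKY ranges, against 175 CPM or more, 173 CPM or more and 42.2 CPM or more in the other ARNI libraries.

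Among the genes that supply and remove the transmitters, Pnmt, which makes adrenaline from noradrenaline, was called higher (2.33, SE 0.30 and adjusted p = 0.00672, edgeR), with 0.597, 0.609 and 0.622 CPM in WKY and 3.41, 2.44 and 4.40 CPM in SHR. The WKY values rest on few reads, as 3 counts are worth 0.256 to 0.267 CPM there. Pnmt also did not overlap between the libraries with Myl2 over 1000 CPM (0.597 to 2.44 CPM) and the others (2.78 to 10.4 CPM), as in 21.1% of all genes. Slc22a3, a transporter that takes up catecholamines outside neurons, was called lower (-1.43, SE 0.38 and adjusted p = 0.0424, edgeR), and the median over 8 catecholamine genes was 0.26. Neither of the 2 tested genes of acetylcholine handling was called (median 0.70), and Chat, Slc18a3 and Slc5a7 were too low to be tested. Of 11 genes that make, carry or break down adenosine, Slc28a2, a nucleoside carrier, was called lower (-1.03, SE 0.12 and adjusted p = 0.00580, edgeR), with a median of -0.03. In the other 3 comparisons no gene of any of these lists was called by edgeR, nor was any gene at all.

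**Figure D5:**
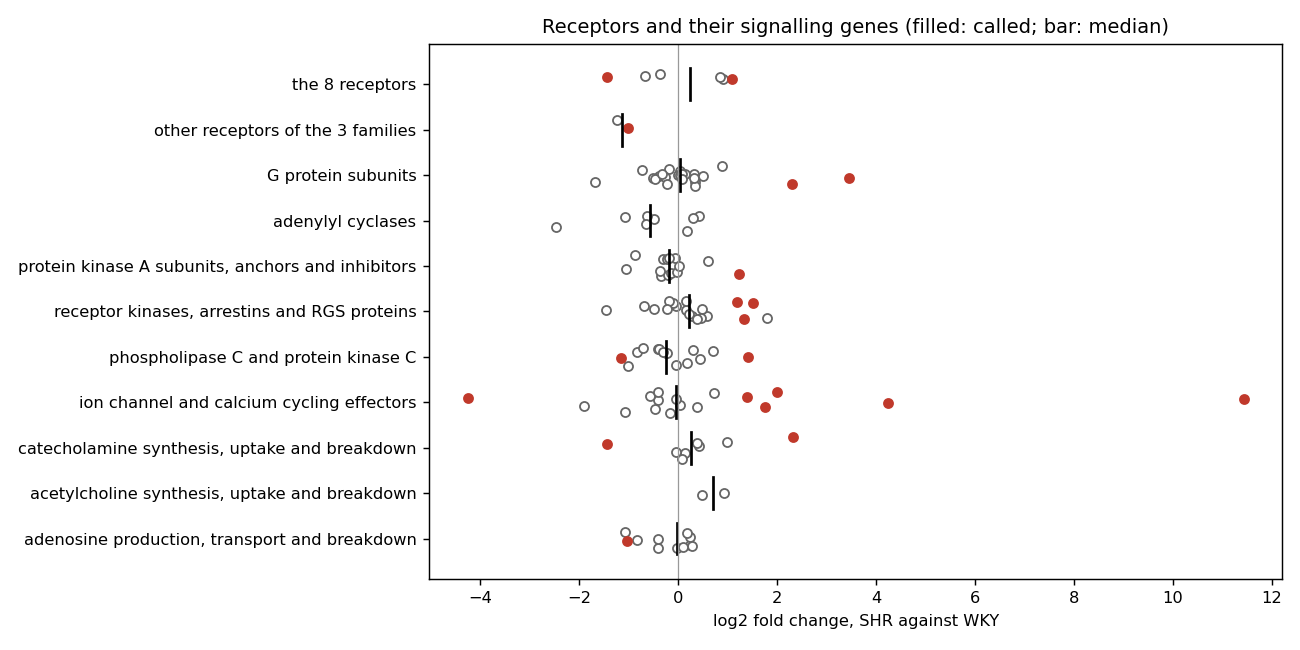
Log2 fold change between SHR and WKY (positive where SHR is higher) for every tested gene of the 8 receptors, the 9 further receptors of the families and 9 signalling lists (points; filled red where called, that is past both thresholds), with the median of each list (vertical bar). Called genes lie on both sides of 0, the medians lie between -1.13 and 0.70, and Sln, with few reads in WKY, stands furthest out at 11.43.

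For each receptor the genes with the most similar levels were looked up, by Pearson correlation of log2 CPM over the 12 libraries against 14451 genes. These correlations are descriptions, since the libraries share groups and chamber markers. Chrm2 was closest to Phka1 (r = 0.986), Arfgef1 (0.980) and Sec23a (0.979), and Adora1 to Mybph (0.978), Tmem47 (0.978) and Rgs6 (0.972). Adra1b was closest to Magix (0.992), Anxa11 (0.988) and Dctn6 (0.987), and Adrb1 to Hsd17b13 (0.957), Fuz (0.949) and Foxo6 (0.932). Adra1a was closest to Rap1gap2 (0.943), Usp7 (0.942) and Ibtk (0.933), and Adora2a to Tcf15 (0.968), Pkm (0.967) and Ehd1 (0.967). Adrb3 was closest to the fat cell genes Ucp1 (0.981), Plin1 (0.975) and Cidec (0.975). These values rest on WKY replicate 3, ARB replicate 2 and ARNI replicate 3, the only libraries with more than 1 read of Adrb3. Chrm3, with 4 to 15 reads a library, was closest to Macroh2a2 (0.915), Zfp575 (0.893) and S100a4 (0.887), values that counting noise of so few reads makes uncertain.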

How the data were processed

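Poly(A) RNA of 12 rats, labelled as left atrium, was sequenced on a BGISEQ-500, and the libraries were grouped by the names in their titles. The authors filtered reads with SOAPnuke, aligned them with HISAT2 2.0.4 and Bowtie2 2.2.5 (their processing notes name Rnor_6.0) and deposited RSEM's expected counts for each gene, without normalization. The deposited table lists 37246 genes, of which 21239 have counts, and 23.6% of the values are not whole. Reads of near-identical genes may be split between them. Its columns of the authors' own log2 fold change and p-value of SHR over WKY were not used.

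Expected counts were rounded, filtered with filterByExpr, scaled by TMM and compared between pairs of groups on their 6 libraries by the quasi-likelihood test of edgeR (4.0.16, limma 3.58.1, R 4.3.3), with Benjamini-Hochberg adjustment over all genes tested. DESeq2 1.42.0 was an alternative. CPM values are counts over library totals without TMM. Over all genes, the median log2 fold change of SHR over WKY was 0.01 with TMM and 0.15 with library totals only. The steps were tested on simulated counts. Intervals are 95% intervals from the quasi-likelihood fit. Libraries were taken to come from separate rats, as the study states 3 rats a group.

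The 8 receptors, the lists and the comparisons were chosen with earlier results of these data known. Named were the receptors of the 3 families, except 1 that is not reported here, up to 3 genes called higher and 3 called lower with the largest fold change in each list, the 3 most similar genes of each receptor (prior count 1), and marker genes that moved with a result.

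Groups share replicate numbers in the labels. Deviations of same-numbered libraries from their group means had correlations of 0.54, 0.48 and 0.22 between ARNI and SHR, which by the rule set for this check (every pair over 0.1) were taken as paired. They were 0.02, -0.07 and -0.10 between SHR and WKY, 0.41, -0.28 and -0.27 between ARB and SHR, and 0.54, -0.44 and -0.11 between ARNI and ARB, which were not. Nothing in the labels says what a number shares. The library with high Myl2 is replicate 2 in both SHR and ARNI, but replicate 3 in ARB. The part of this in the correlations was not tested, so they do not show that the rats were paired. Alternatives were DESeq2, its size factors, library totals, no filter, all 12 libraries in 1 fit, that fit with a marker score, a replicate block, each library left out and, chosen after seeing the data, the libraries with Myl2 left out.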

Additional observations from a re-analysis of the deposited data

How the results depend on the processing

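Between SHR and WKY, 2 receptors were called, Chrm2 and Adora2a. DESeq2, its size factors in edgeR and no filter also gave 2, and library totals gave 3. All 12 libraries in 1 fit gave 0, with or without the marker score, the adjusted p alone gave 4, and leaving out each library gave 0 to 3. It gave 0 without WKY replicate 1, WKY replicate 3 or SHR replicate 3, 1 without SHR replicate 1, and 3 without SHR replicate 2. Without WKY replicate 2, Adora2a was no longer called and Adrb1 newly passed. Among all genes, 1226 were called, against 579 in the fit of 12 libraries, 159 with the marker score, 681 with the block, 348 to 2205 with a library left out and 1601 with DESeq2. In the other 3 comparisons every alternative called 0 receptors. With the replicate block 1 receptor (Chrm2) was called between SHR and WKY, and Adora2a had an adjusted p of 0.0640 (edgeR). The block changed no other receptor's call, also between ARNI and SHR, where the numbers were taken as paired. The SHR and WKY numbers share only a number.

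Of 372 values of single receptors under alternatives, 317 kept their direction and side of the thresholds, 41 changed sign, 11 were no longer past the thresholds and 3 newly passed. With the marker score, the log2 fold change between SHR and WKY became 0.51 for Adra1a, 0.73 for Adra1b, -0.13 for Chrm2 and 0.28 for Adora2a, that between ARNI and SHR -0.22 for Adra1b and 0.18 for Chrm2, and that between ARNI and ARB -0.22 for Adra1b and -0.16 for Adora2a. Between ARB and SHR, Adra1b lay at -0.0049 and became 0.0044 with DESeq2, 0.0026 with its size factors, 0.0065 in the fit of 12 libraries, 0.0023 with the marker score and 0.030 with the block. Without the libraries with Myl2, Adra1b became 0.095 and Chrm2 0.039 between ARB and SHR, Chrm2 0.15 and Chrm3 0.034 between ARNI and SHR, and Adra1b -0.069 and Chrm3 0.065 between ARNI and ARB. The cause of these changes was not tested. With each library left out, values between ARB and SHR were -0.35 to 0.44 for Adra1b, -0.25 to 0.17 for Chrm2, -0.47 to 0.25 for Chrm3 and -0.036 to 0.26 for Adora1, those between ARNI and SHR -0.086 to 0.78 for Adra1a, -0.41 to 0.66 for Adra1b, -0.36 to 0.29 for Chrm2 and -0.85 to 0.073 for Chrm3, and those between ARNI and ARB -0.40 to 0.58 for Adra1b, -0.28 to 0.37 for Chrm2, -0.74 to 0.17 for Chrm3 and -0.29 to 0.87 for Adora2a. With a library left out, the spread rests on 5 libraries. The counts of Chrm3 and Adrb3 limit what can be seen, and so does the number of 3 libraries a group.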
